A study of Mus musculus with 6 samples.

Results

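Interferon-gamma type targets were followed across the cells of the mouse small intestine as 10 genes taken by symbol from the 32285 features of the count tables, and all 10 symbols were present. They were the guanylate-binding proteins Gbp2, Gbp3 and Gbp7, the immunity-related GTPases Irgm1, Igtp and Iigp1, the ubiquitin-like modifier Ubd, the tryptophan-degrading enzyme Ido1, the chemokine Cxcl10 and the transcription factor Irf1. The data are 6 droplet single-cell RNA libraries of small intestinal epithelium, in which reads are collapsed to unique molecular identifiers (UMIs). The 3 control littermates, whose genotype label reads wild-type, were HuR fl/fl-Cre- mice. The 3 mice labelled HuR knockout (IE-HuR-/-) carried the same floxed HuR alleles together with villin-Cre, a recombinase driven by a promoter of intestinal epithelial cells, so that their immune cells are outside the reach of the deletion by design. All were young, age- and gender-matched animals of C57BL/6 background. The study's captions describe its single-cell values as means over animals and the labels tie no library to an animal, so the p-values below measure the spread between these libraries. The labels give normal feeding and drinking, whereas the study's methods describe fasting before experiments.

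Interferon-gamma is a cytokine made mainly by T cells and natural killer (NK) cells. It binds the receptor formed by Ifngr1 and Ifngr2 and signals through the kinases Jak1 and Jak2. Target promoters can hold palindromic elements known as GAS (gamma-activated sites). Irf1, itself a target, binds interferon-stimulated response elements (ISRE) in many of the later targets, and several targets also respond to type I and type III interferons. The intestinal epithelium is exposed to these cytokines by the lymphocytes that lie between its cells.

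Promoter sequence of the members is shown first because it is the one feature they can share that does not depend on the libraries. RefSeq promoters (250 bases before to 50 after each annotated start, build GRCm38.p6, that is mm10) matched 8 of the 10 symbols, and Iigp1 and Ido1 were not among them. The ISRE core was searched on both strands as GAAA, any 2 bases and GAAA, which on the other strand reads TTTC, any 2 bases and TTTC, and the GAS core as TTC, any 3 bases and GAA, which is its own reverse complement. Of all 32851 promoters of this length, 1131 (3.443%) held the ISRE core and 2726 (8.298%) held the GAS core. Counted per gene, as the members are, these were 1079 (3.993%) and 2582 (9.554%) of 27025 genes. Of the 8 members matched, 6 held the ISRE core, 3 held the GAS core and 1, Ubd, held neither. In the lines that follow the matched letters are in capitals and the flanks in lower case, read 5′ to 3′ on the strand of the gene.
Gbp2, ISRE, chr3:142620594-142620623 (+): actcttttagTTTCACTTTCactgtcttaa
Gbp3, ISRE, chr3:142559989-142560018 (+): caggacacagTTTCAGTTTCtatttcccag
Gbp7, ISRE, chr3:142530273-142530302 (+): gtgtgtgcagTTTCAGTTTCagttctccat
Gbp7, GAS, chr3:142530220-142530248 (+): tccgttttctTTCCAGGAAaagcagaagc
Irgm1, ISRE, chr11:48871425-48871454 (-): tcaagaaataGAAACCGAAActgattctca
Igtp, ISRE, chr11:58199512-58199541 (+): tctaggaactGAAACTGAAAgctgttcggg
Igtp, GAS, chr11:58199501-58199529 (+): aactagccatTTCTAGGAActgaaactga
Cxcl10, ISRE, chr5:92349083-92349112 (-): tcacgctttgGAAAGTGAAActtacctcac
Irf1, GAS, chr11:53769914-53769942 (+): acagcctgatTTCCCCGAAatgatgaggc

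Gbp7 held a second GAS match and Gbp3 and Irgm1 each a second ISRE match that overlapped the first by letters, whereas no ISRE match overlapped a GAS match. The GAS match of Irf1 began 90 bases before the RefSeq start, the ISRE match of Gbp2 59 bases before it and that of Cxcl10 213 bases before it. By the GENCODE annotation the Gbp2 gene starts inside its printed window and the Irgm1 gene extends past its own. A match describes these letters alone and is not a measured binding site.

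Positions of 9 members in the same build were taken from the GENCODE annotation. Gbp7 (chr3:142530342-142550149), Gbp3 (chr3:142560026-142573209) and Gbp2 (chr3:142620602-142638008) are neighbours on the plus strand. Irgm1 (chr11:48861968-48871683, minus), Irf1 (chr11:53770014-53778374, plus) and Igtp (chr11:58199556-58207591, plus) share a chromosome, and Ubd (chr17:37193892-37196095, plus), Ido1 (chr8:24584136-24597009, minus) and Cxcl10 (chr5:92346638-92348889, minus) stand alone. Igtp overlaps Irgm2 on the same strand and shares 15.94% of its 31-base words with other genes, mostly Irgm2. Gbp7 shares 14.7% of its words, mostly with the pseudogene Gm43802 that lies within it. These shares are over whole transcripts, and how far they make the counts of Igtp and Gbp7 uncertain was not tested. The share was 6.9% for Iigp1, 5.64% for Gbp3, 4.85% for Gbp2, 2.2% for Irgm1 and 0.34% for Irf1, and Ubd, Ido1 and Cxcl10 shared none.

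The libraries held 60706 barcodes and 428980031 UMIs, between 59518012 and 91818560 UMIs and between 8613 and 15041 barcodes each, and 60431 barcodes with at least 200 genes were kept. Barcodes were assigned to classes by the share of their UMIs that came from marker lists, with thresholds set after the data had been seen. The classes held 35767 enterocyte-like, 1216 goblet-like, 361 progenitor-like, 5563 T/NK-like and 341 myeloid-like barcodes, and UMIs were summed per library and class. A level is given below as CPM, the UMIs of a gene for every 1000000 UMIs of that class in that library, without further scaling. Elavl1, the gene that encodes HuR, had 29.5, 32.1 and 29.98 CPM in all epithelial barcodes of the control libraries and 31.1, 30.8 and 31.8 CPM in the others, which gave 0.16 on the log2 scale (SE 0.0473, edgeR quasi-likelihood test, adjusted p = 0.0123). The RNA of the targeted gene was not lower, so the libraries are named by their labels throughout. Counts per gene do not separate the part that Cre removes from the rest of the transcript, so this level does not show whether the deletion took place. Pairs of libraries of the same label differed by a chi-square of 11.47 to 35.61 per degree of freedom over genes, so none were copies of each other, and pairs of different labels differed by 177.67 to 233.65.

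In enterocyte-like cells, the absorptive cells that make up most of the villus, the 10 targets did not move as a group. Gbp2, Iigp1, Ubd and Irf1 stood above control in the libraries labelled IE-HuR-/-, Gbp3, Irgm1, Igtp and Cxcl10 were lower, and Gbp7 and Ido1 did not pass the test. Counts were compared with edgeR's quasi-likelihood test (TMM scaling, Benjamini-Hochberg adjusted p under 0.05), in which a log2 fold change is the libraries labelled IE-HuR-/- minus control. Of the 10 members 8 were called, 4 higher and 4 lower, against 58.8% of the 12620 RNAs tested in this class (29.6% higher and 29.2% lower), and the libraries of the labels did not overlap for 8 of 10 members against 67.7% of all RNAs. Both counts of 8 include Iigp1, which passed the count filter only through the libraries labelled IE-HuR-/- and could only be called higher. The part of position along the villus in these calls was not tested, and levels by position are described below.

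Irf1, the transcription factor of the group, stood at 132, 124 and 133 CPM in the control libraries and at 187, 173 and 180 CPM in those labelled IE-HuR-/-. Every library labelled IE-HuR-/- was above every control library, and the log2 fold change was 0.67 (SE 0.0431, edgeR adjusted p = 4.9e-14). Ubd encodes FAT10, a ubiquitin-like protein that marks other proteins for degradation. It had 48.2, 49.5 and 48.9 CPM in control and 97.6, 92.3 and 90.0 CPM in the libraries labelled IE-HuR-/-. The control values lay within 2 CPM of each other and the groups were far apart, with a log2 fold change of 1.13 (SE 0.0452, edgeR adjusted p = 6.0e-19).

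Among the guanylate-binding proteins, large GTPases that assemble on the membranes of pathogens, Gbp2 and Gbp3 moved in opposite directions in the same enterocyte-like sums. Gbp2 was close to absent in control, at 0.444, 0.811 and 0.358 CPM (92 UMIs in all), and reached 5.07, 3.999 and 3.41 CPM (526 UMIs) in the libraries labelled IE-HuR-/-. The groups did not overlap and the log2 fold change was 3.08 (SE 0.255, edgeR adjusted p = 1.2e-06). In the first of these libraries 53 of the 200 Gbp2 UMIs came from 1 barcode.

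Gbp3 went the other way, from 2.07, 1.95 and 1.92 CPM in control to 0.329, 0.386 and 0.637 CPM. All 3 control libraries stood above the rest, and the log2 fold change was -1.93 (SE 0.210, edgeR adjusted p = 4.4e-09). Gbp7, their neighbour on chromosome 3, had 12.7, 9.80 and 8.79 CPM in control and 8.49, 6.84 and 8.83 CPM in the libraries labelled IE-HuR-/-. These ranges overlapped, and the log2 fold change of -0.18 (SE 0.175) was not called (edgeR adjusted p = 0.419).

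The immunity-related GTPases, which act on the vacuoles around intracellular microbes, divided as well. Iigp1, an effector of this family, had 11, 15 and 0 UMIs in the 3 control libraries and 117, 155 and 161 UMIs in the others, which is 0.204, 0.234 and 0 CPM against 2.96, 3.52 and 3.66 CPM. The groups did not overlap (log2 fold change 4.59, SE 0.405, edgeR adjusted p = 2.2e-05), and 12 of the 15 UMIs of the second control library came from 1 barcode. With 0 UMIs in the third control library, Iigp1 passed the count filter only through the libraries labelled IE-HuR-/-. It could therefore only be called higher. Irgm1, a regulator of the family, fell by 0.47 on the log2 scale (SE 0.0796, edgeR adjusted p = 8.7e-06), from 9.12, 8.60 and 9.60 CPM to 5.73, 5.09 and 6.37 CPM. Igtp, another regulator, fell by 0.18 (SE 0.0587, edgeR adjusted p = 0.0100), from 20.1, 19.0 and 17.4 CPM to 14.4, 14.5 and 14.8 CPM. For both regulators all control libraries stood above all libraries labelled IE-HuR-/-.

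Cxcl10, a chemokine that attracts activated T cells and is also a target of type I interferon, showed the largest fall among the 10 members in these sums. It had 9.74, 8.63 and 9.26 CPM in control and 1.39, 1.05 and 1.32 CPM in the libraries labelled IE-HuR-/- (log2 fold change -2.68, SE 0.107, edgeR adjusted p = 5.7e-19). Ido1, which starts the breakdown of tryptophan, had 7.14, 12.1 and 6.53 CPM in control and 9.78, 5.77 and 8.40 CPM in the others. The Ido1 ranges overlapped and no difference was called (log2 fold change 0.06, SE 0.355, edgeR adjusted p = 0.8999).

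Markers of other cell types in these enterocyte-like sums moved in part with the label. The 14 T/NK markers summed to 99.2 to 216 CPM in control and 157 to 220 CPM in the libraries labelled IE-HuR-/-, with all 14 detected in every library. The 8 B and plasma cell markers summed to 2.04 to 5.10 and 21.2 to 36.6 CPM, and the 12 myeloid markers to 41.1 to 53.8 and 34.5 to 39.8 CPM. The 6 fibroblast markers summed to 1.86 to 2.78 and 0.863 to 0.963 CPM. Restricted to barcodes without a UMI of Cd3e, Cd3d, Cd3g, Cd79a, Cd79b, Ms4a1, Lyz2, Cd68 or Csf1r, each of the 8 calls was kept with its direction.

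**Figure D1:**
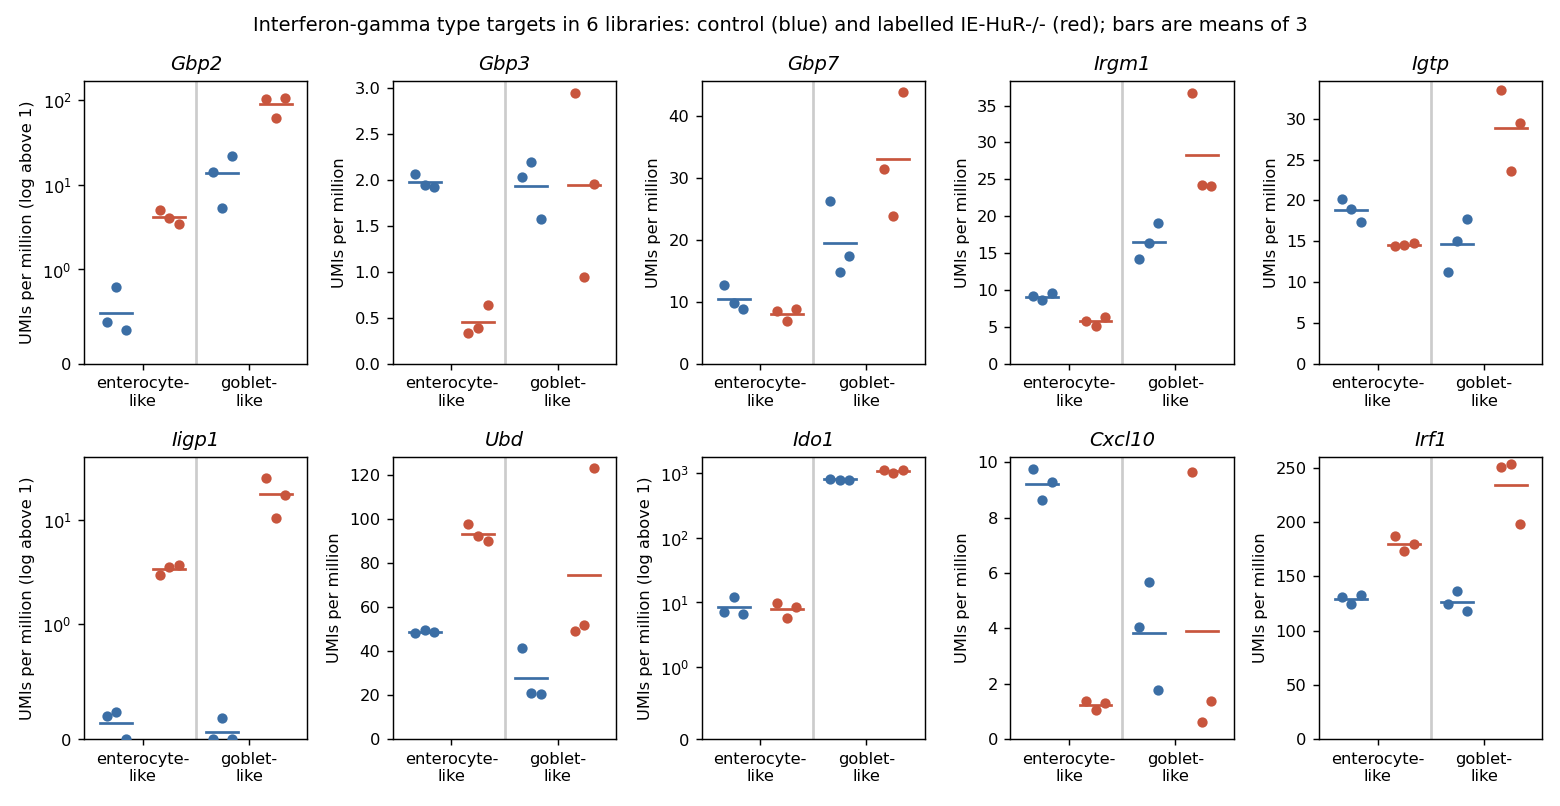
Level of each of the 10 targets in CPM (y axis, from 0; logarithmic above 1 for Gbp2, Iigp1 and Ido1) in enterocyte-like and goblet-like sums, with 1 point per library, control in blue and libraries labelled IE-HuR-/- in red, and bars at the mean of 3. Irgm1 and Igtp stand lower in the red points of enterocyte-like sums and higher in those of goblet-like sums, and Ido1 lies near 10 in enterocyte-like and near 1000 in goblet-like sums.

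Goblet-like cells, the mucus-secreting cells of the epithelium, differed from enterocyte-like cells in the direction of the GTPases Irgm1 and Igtp, whereas Gbp2 and Iigp1 were higher in both. Of 9 members tested, 7 were called (Gbp2, Gbp7, Irgm1, Igtp, Iigp1, Ido1 and Irf1), all higher in the libraries labelled IE-HuR-/-, against 26.9% of 9047 RNAs called in this class (14.5% higher and 12.5% lower). Libraries of the labels did not overlap for 7 of the 9 members against 46.7% of all RNAs. Both counts include Iigp1, which had 1 UMI in control and 190 in the libraries labelled IE-HuR-/-. It passed the count filter only through the latter and could only be called higher, so its call carries no information on direction. Gbp3 had 51 UMIs over the 6 libraries and was not tested.

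Irgm1 had 14.2, 16.3 and 19.1 CPM in goblet-like sums of the control libraries and 36.7, 24.2 and 24.1 CPM in those labelled IE-HuR-/- (log2 fold change 0.97, SE 0.169, edgeR adjusted p = 1.8e-04). Igtp had 11.3, 15.04 and 17.8 CPM against 33.5, 23.6 and 29.5 CPM (log2 fold change 1.17, SE 0.169, edgeR adjusted p = 1.9e-05). Neither gene's groups overlapped, and both lay in the opposite direction to enterocyte-like sums of the same libraries. Gbp7 had 26.2, 14.9 and 17.3 CPM in control and 31.4, 23.9 and 43.8 CPM in the others. Its groups overlapped and the call (log2 fold change 0.95, SE 0.278, edgeR adjusted p = 0.0401) was lost when the second or the third control library or the first library labelled IE-HuR-/- was left out (adjusted p = 0.0524, 0.126 and 0.0854), without TMM scaling (0.0662), with doubled gate thresholds (0.287) and in barcodes without immune markers (0.178).

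Gbp2 rose from 14.0, 5.32 and 22.02 CPM in control to 102, 61.6 and 104 CPM (log2 fold change 2.93, SE 0.505, edgeR adjusted p = 0.0176). The groups did not overlap, and the call was lost without the first control library (adjusted p = 0.0728) or without the first or the third library labelled IE-HuR-/- (0.0606 and 0.0650). Iigp1 had 0, 1 and 0 UMIs in the control libraries and 95, 33 and 62 UMIs in the libraries labelled IE-HuR-/-, a ratio of 277.9 per UMI sequenced with a 95% counting interval of 49.3 to 11033 (exact conditional binomial). That interval covers counting error only, and the UMIs lay in 14, 7 and 9 barcodes.

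Ido1 was a goblet-like transcript in both groups. Its level was 801, 780 and 782 CPM in control and 1095, 982 and 1103 CPM in the libraries labelled IE-HuR-/-, and the rise of 0.61 on the log2 scale (SE 0.0971) was called (edgeR adjusted p = 5.3e-05). Irf1 rose from 125, 137 and 118 CPM to 251, 253 and 198 CPM, with a log2 fold change of 1.06 (SE 0.105, edgeR adjusted p = 8.9e-08) and no overlap. Ubd and Cxcl10 were not called here.

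Ubd in goblet-like sums had 41.5, 21.1 and 20.4 CPM in control and 49.1, 51.9 and 123 CPM in the libraries labelled IE-HuR-/-, and 128 of the 439 UMIs of the highest library came from 1 barcode (log2 fold change 1.61, SE 0.566, edgeR adjusted p = 0.118). Cxcl10 had 4.06, 5.68 and 1.80 CPM against 9.65, 0.629 and 1.40 CPM, with 25 of the 36 UMIs of the highest library in 1 barcode (log2 fold change 0.22, SE 0.993, edgeR adjusted p = 0.907). Gbp3 had 2.03, 2.20 and 1.57 CPM against 2.95, 0.943 and 1.964 CPM, and its ranges overlapped.

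In goblet-like sums the 13 enterocyte markers summed to 42381 to 44123 CPM in control and 27332 to 36843 CPM in the libraries labelled IE-HuR-/-. The T/NK markers summed to 80.9 to 102 and 65.4 to 252 CPM, the myeloid markers to 76.4 to 85.3 and 75.1 to 110 CPM with Adgre1 at 0 in every library, and the B and plasma cell markers to 2.95 to 9.90 and 10.7 to 16.6 CPM. The fibroblast markers summed to 0.225 to 2.20 and 0.804 to 7.86 CPM with Lum at 0 in every library. In barcodes without a UMI of the 9 immune markers named above, Gbp2, Irgm1, Igtp, Iigp1, Ido1 and Irf1 remained called. The part of enterocyte RNA in these values was not tested.

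**Figure D2:**
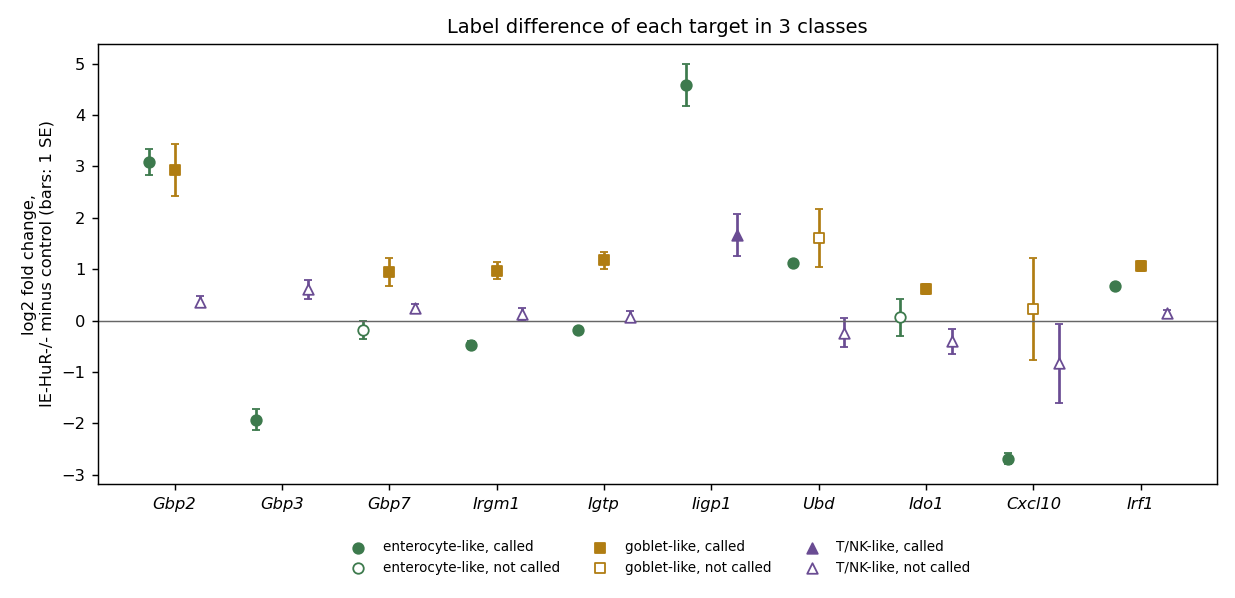
Log2 fold change (libraries labelled IE-HuR-/- minus control, y axis) of each target in enterocyte-like, goblet-like and T/NK-like sums, with bars of 1 SE and filled points for edgeR adjusted p under 0.05. Goblet-like Iigp1 (1 UMI in control) is left out and goblet-like Gbp3 was not tested. Irgm1 and Igtp lie below 0 in enterocyte-like and near 1 in goblet-like sums.

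Whether the label difference itself differed between the 2 epithelial classes was tested as a class-by-label term with the library as a block, a comparison added after the data had been seen. It was called for 5 of the 10 members, all with the more positive difference in goblet-like sums, against 3.85% of 12300 RNAs (2.52% in that direction and 1.33% in the other). The difference of log2 fold changes was 1.48 for Irgm1 (SE 0.192, edgeR adjusted p = 3.2e-05), 1.40 for Igtp (SE 0.191, 1.3e-04) and 1.18 for Gbp7 (SE 0.169, 1.3e-04). It was 2.18 for Gbp3 (SE 0.545, 0.0213) and 0.44 for Irf1 (SE 0.120, 0.0372). Gbp3 had too few UMIs to be tested in goblet-like sums alone (51), and its ranges overlapped there. The Gbp3 term was lost without the first control library (adjusted p = 0.0612), the third (0.0584) or the first library labelled IE-HuR-/- (0.214). The Irf1 term was lost with DESeq2 (0.0517), in barcodes without immune markers (0.109), without the first or the third control library (0.165 and 0.203) and without the first or second library labelled IE-HuR-/- (0.114 and 0.0781), whereas Irgm1, Igtp and Gbp7 kept their calls under each alternative run.

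The other 5 members gave no call for this term. The difference was -0.04 for Gbp2 (SE 0.632) and 0.49 for Ubd (SE 0.581), with edgeR adjusted p of 0.987 and 0.781. It was 0.56 for Ido1 (SE 0.231, 0.273), 2.86 for Cxcl10 (SE 0.935, 0.215) and, for Iigp1, rests on 1 control UMI.

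T/NK-like cells, the lymphocytes in and under the epithelium, lie outside the reach of villin-Cre. Of the 10 members, all tested, only Iigp1 was called between the labels, against 2.30% of 11194 RNAs (1.39% higher and 0.911% lower). Iigp1 had 0.645, 1.79 and 0.924 CPM in control (15 UMIs) and 3.78, 4.24 and 3.40 CPM (59 UMIs) in the libraries labelled IE-HuR-/-, with no overlap and a log2 fold change of 1.67 (SE 0.408, edgeR adjusted p = 0.0495). Its control libraries alone would not have passed the count filter, so Iigp1 could only be called higher. The call was lost with DESeq2 (adjusted p = 0.149), in barcodes of at least 2000 UMIs (0.0528) and when any 1 of 5 libraries was left out, namely the first or the third control (0.238 and 0.0544) or any of those labelled IE-HuR-/- (0.188, 0.221 and 0.164).

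Gbp2 had 30.96, 29.1 and 29.6 CPM in T/NK-like sums of the control libraries and 40.9, 37.0 and 39.8 CPM in the others (log2 fold change 0.37, SE 0.101, edgeR adjusted p = 0.0817). Gbp3 had 7.74, 8.58 and 9.54 CPM against 12.9, 14.5 and 12.2 CPM (log2 fold change 0.61, SE 0.178, edgeR adjusted p = 0.107). Gbp7 had 107, 84.0 and 102 CPM against 117, 113 and 119 CPM (log2 fold change 0.24, SE 0.0817, edgeR adjusted p = 0.169). For these 3 genes and Iigp1 the groups did not overlap, 4 of 10 members against 19.1% of all RNAs. This count includes Iigp1 although its control libraries alone would not have passed the count filter. Irgm1, Igtp, Ubd, Ido1, Cxcl10 and Irf1 overlapped, with Irf1 at 134, 127 and 155 CPM against 159, 157 and 148 CPM.

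Ifng, the ligand, was a T/NK-like transcript, with 83 UMIs there in control and 221 in the libraries labelled IE-HuR-/-, against 4 and 13 in the far larger enterocyte-like sums. It had 6.88, 5.39 and 7.39 CPM in control and 12, 13.6 and 16.7 CPM in the libraries labelled IE-HuR-/-. The groups did not overlap, and the log2 fold change of 1.11 (SE 0.201) was called (edgeR adjusted p = 0.00974).

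The label difference of T/NK-like sums differed from that of enterocyte-like sums for 7 of the 10 members, against 9.81% of 13940 RNAs (6.23% more positive and 3.57% more negative in T/NK-like sums). It was more negative for Iigp1 (-2.90, SE 0.696, edgeR adjusted p = 0.0327), Gbp2 (-2.68, SE 0.255, 7.1e-04), Ubd (-1.32, SE 0.295, 0.0268) and Irf1 (-0.50, SE 0.106, 0.0195). It was more positive for Gbp3 (2.55, SE 0.288, 0.0013), Irgm1 (0.62, SE 0.133, 0.0210) and Gbp7 (0.45, SE 0.121, 0.0491). Gbp2 and Gbp3 kept their calls under every alternative run, whereas the number called ranged from 2 to 8 when 1 library was left out. Barcodes with little RNA of other classes were not among the alternatives run for this term. The part of free enterocyte RNA in the T/NK-like values of Ubd, described below, was not tested. The number called depended on the library left out. It was 3 without the first control library and 2, 2 and 3 without the first, the second and the third library labelled IE-HuR-/-. Gbp7, Iigp1, Ubd, Irf1 and Irgm1 each lost the call in 3 or more of the leave-one-out fits, with adjusted p up to 0.190 for Gbp7, 0.0978 for Iigp1, 0.104 for Ubd, 0.107 for Irf1 and 0.0925 for Irgm1. With doubled gate thresholds the difference was -1.23 for Iigp1 (0.343) and -1.05 for Ubd (0.174), neither called. The Gbp7 call was also lost with DESeq2 (0.153), with a stricter barcode filter (500 genes or more, mitochondrial share up to 25%; 0.0795) and with other epithelial barcodes added to the enterocyte-like class (0.0699). That last setting ended the call of Irgm1 as well (0.0885), leaving out the low-count filter that of Ubd (0.0786), and leaving out TMM that of Irf1 (0.0550).

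Progenitor-like and myeloid-like sums were shallower and gave no call among the members. In progenitor-like sums 2 members passed the filter, against 0.168% of 6556 RNAs called (0.107% higher and 0.0610% lower), and neither reached an unadjusted p of 0.05 by edgeR, nor did DESeq2 call one. Irf1 there had 41.9, 75.0 and 61.4 CPM in control and 79.7, 82.3 and 115 CPM in the libraries labelled IE-HuR-/- (log2 fold change 0.54), without overlap. The libraries of the labels did not overlap for 1 of 2 members tested, against 11.1% of all RNAs in this class. In myeloid-like sums 4 members were tested, against 0.222% of 3598 RNAs called. Gbp3 (log2 fold change 1.24) and Gbp7 (0.99) had unadjusted p of 0.0265 and 0.0159 by edgeR, Gbp2 and Irf1 did not reach 0.05, and DESeq2 called none.

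Myeloid-like levels of 2 members were carried by single barcodes. Iigp1 had 3.18, 0 and 0 CPM in control and 84.7, 186 and 4.65 CPM in the libraries labelled IE-HuR-/-, and 14 of 21 and 30 of 56 UMIs of the higher libraries came from 1 barcode each. Cxcl10 had 3.18, 93.7 and 10.2 CPM against 36.3, 246 and 32.5 CPM, with 22 of 25 UMIs of the second control library and 57 of 74 of the second library labelled IE-HuR-/- in 1 barcode. Median UMIs per myeloid-like barcode were 2411 to 4237 in control and 1362 to 1511 in the other libraries.

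Across classes, levels of the same gene were compared within libraries, with the library as a block. The fits held no class-by-label term, so each value averages over both labels. For members whose label difference differed between classes, such as Gbp2 and Gbp3, it need not describe either label. The guanylate-binding proteins were higher in the immune classes than in enterocyte-like sums, and Ubd was lower. Irf1 was called lower in both immune classes with TMM scaling and in neither without it. Of the 10 members 8 were called between T/NK-like and enterocyte-like sums, against 89.8% of 12895 RNAs (45.6% higher and 44.2% lower in T/NK-like sums), so that a call here says little by itself. The log2 difference (T/NK-like minus enterocyte-like) was 3.34 for Gbp2 (SE 0.463), 2.66 for Gbp7 (SE 0.107), 2.46 for Gbp3 (SE 0.460), 0.92 for Irgm1 (SE 0.131) and 0.39 for Igtp (SE 0.0879), with edgeR adjusted p between 1.1e-08 and 0.0020. It was -3.30 for Ubd (SE 0.257), -0.95 for Irf1 (SE 0.104) and -0.54 for Ido1 (SE 0.128), with adjusted p between 9.3e-07 and 0.0027. The calls of Irf1 and Ido1 depended on scaling. In this comparison the median of all RNAs was 0.93 without TMM and 0.045 with it. Without TMM the difference was -0.07 for Irf1 (edgeR adjusted p = 0.429) and 0.34 for Ido1 (0.0318). The Ido1 call was also lost with the stricter barcode filter (-0.18, 0.257) and in barcodes of at least 2000 UMIs (-0.080, 0.589).

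Myeloid-like sums differed from enterocyte-like sums for 7 members, against 62.1% of 11550 RNAs (26.6% higher and 35.5% lower in myeloid-like sums). The log2 difference (myeloid-like minus enterocyte-like) was 5.26 for Gbp3 (SE 0.801), 4.45 for Gbp2 (SE 0.680), 3.65 for Iigp1 (SE 0.694), 2.91 for Gbp7 (SE 0.270) and 1.53 for Irgm1 (SE 0.301), and it was -3.62 for Ubd (SE 0.320) and -1.14 for Irf1 (SE 0.215). Adjusted p from edgeR was at most 0.0010 for these 7, and the Irf1 call was lost without TMM scaling (0.0556). The single barcodes named above enter the value of Iigp1. Its excess rests on the libraries labelled IE-HuR-/- and does not describe control, where its myeloid-like level was above 0 in the first library only.

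Goblet-like sums exceeded enterocyte-like sums for 6 members and were lower for 0, against 52.5% of 11539 RNAs (26.3% higher and 26.1% lower, a comparison added after the data had been seen). By far the most uneven of the 6 was Ido1, with a log2 difference of 7.0003 (SE 0.188, edgeR adjusted p = 6.3e-09). It was 4.63 for Gbp2 (SE 0.308), 2.34 for Iigp1 (SE 0.378), 1.73 for Irgm1 (SE 0.327), 1.63 for Gbp7 (SE 0.245) and 0.35 for Irf1 (SE 0.0935). Adjusted p from edgeR was at most 0.0066 for these, and the Irf1 call was lost without TMM scaling (0.104). The Iigp1 excess rests on the libraries labelled IE-HuR-/-, with 190 goblet-like UMIs there and 1 in control, and does not describe control. With all libraries edgeR called no member lower, whereas DESeq2 called Ubd lower (-0.50, adjusted p = 0.0333). Ubd was also called lower by edgeR without the third library labelled IE-HuR-/- (-0.70, 0.00478), and Cxcl10 without the first (-0.95, 0.00959).

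Free RNA gives UMIs to droplets whose cell does not make the RNA, and the share it could give was read from class markers. Ido1 in enterocyte-like sums stood at 0.587% to 1.55% of its goblet-like level in the same library (median 0.864%), and Muc2, the main mucin of goblet cells, at 0.591% to 1.26% (median 0.745%). Ido1 in T/NK-like sums was at 0.581% to 1.66% of its goblet-like level (median 1.27%) and Muc2 at 0.647% to 1.21% (median 0.819%). The other goblet markers Zg16, Tff3, Fcgbp and Clca1 had lower medians than Muc2, from 0.489% to 0.689% in enterocyte-like and from 0.408% to 0.625% in T/NK-like sums. The median of Ido1 thus lay above those of all 5 markers in both classes, with a range that overlapped that of Muc2. These 5 markers were themselves genes of the goblet-like gate, and Ido1 was not. Barcodes rich in the gate genes were kept out of the enterocyte-like and T/NK-like sums, so the shares of the markers are not a like measure for Ido1. The part of free goblet RNA in the Ido1 values of these classes was not tested.

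Ubd in T/NK-like sums was at 12.3% to 41.9% of its enterocyte-like level (median 16.7%), beside 8.14% to 17.9% for the enterocyte apolipoprotein Apoa1 (median 10.8%) and 9.62% to 26.5% for the enterocyte disaccharidase Sis (median 16.2%). In goblet-like sums Ubd was at 41.8% to 137% (median 53.2%) and Apoa1 at 46.0% to 67.9% (median 59.7%). Apoa1 and Sis were genes of the enterocyte-like gate and Ubd was not, so their shares are not a like measure for it. The part of free enterocyte RNA in the Ubd values of T/NK-like and goblet-like sums was not tested. Gbp7 in enterocyte-like sums was at 6.04% to 11.9% of its T/NK-like level (median 8.02%), where Cd3e, a subunit of the T cell receptor complex, was at 0.176% to 0.412% (median 0.340%). Gbp7 in enterocyte-like sums thus exceeded the share of Cd3e. Cd3e was a gene of the T/NK-like gate and Gbp7 was not. Barcodes rich in the genes of that gate were kept out of the enterocyte-like and erythroid-like sums. In erythroid-like sums, another marker-gated class, Gbp7 was at 0% to 8.8% of its T/NK-like level (median 3.58%). Cd3e there had a median of 0.364% and a maximum of 0.731%. The Gbp7 median thus exceeded that of Cd3e in erythroid-like sums as well, and the Gbp7 ranges of the erythroid-like and enterocyte-like sums overlapped. The part of free RNA in the Gbp7 values of enterocyte-like sums was not tested.

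Epithelial barcodes that passed no finer gate (10337) were given values but no test. Ubd had 14.9, 20.8 and 23.3 CPM there in control and 74.3, 101 and 80.6 CPM in the libraries labelled IE-HuR-/-, and Gbp2 had 0.765, 1.13 and 1.03 against 5.98, 3.93 and 7.17 CPM. Irgm1 had 5.61, 7.13 and 7.59 against 9.13, 10.7 and 13.5 CPM, so that its libraries stood in the order of goblet-like and not of enterocyte-like sums. Added to the enterocyte-like class, these barcodes left the fall of Irgm1 called (-0.30, edgeR adjusted p = 0.0015).

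**Figure D3:**
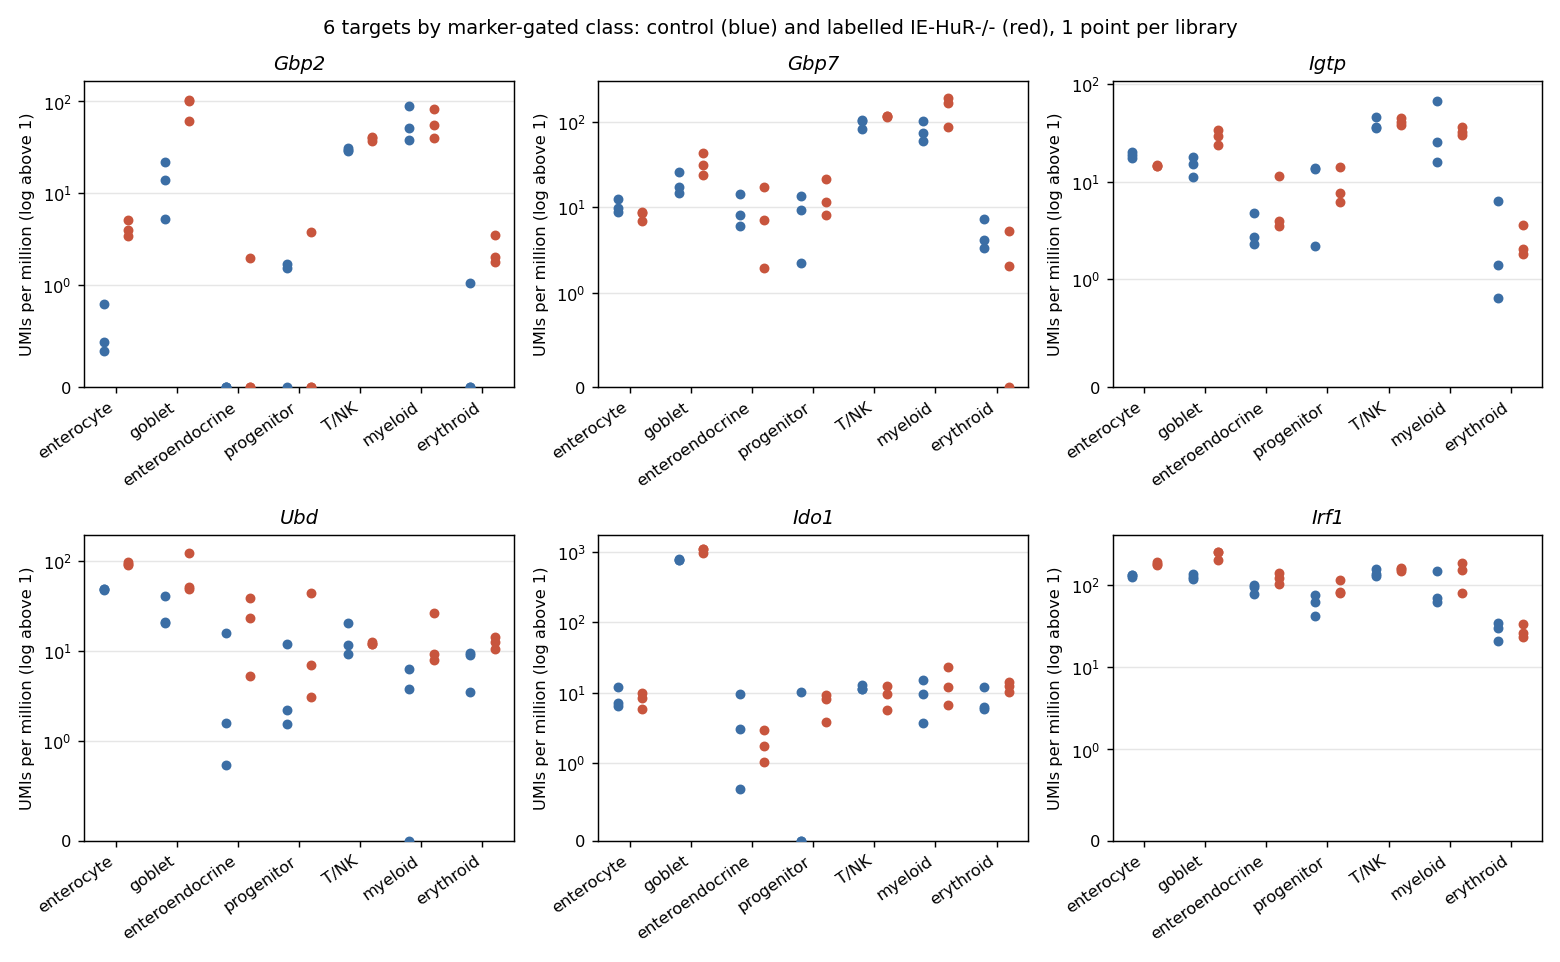
Levels of 6 targets in CPM (y axis, from 0, logarithmic above 1) in 7 marker-gated classes, 1 point per library, control in blue and libraries labelled IE-HuR-/- in red. Ido1 stands near 1000 in goblet-like sums and mostly near 10 elsewhere, Gbp7 is highest in T/NK-like and myeloid-like sums, and Ubd is highest in enterocyte-like and goblet-like sums.

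Shares of barcodes with a UMI were compared after each barcode of at least 2000 UMIs had been thinned to 2000. Ido1 was seen in 60.6% to 70.9% of 587 goblet-like control barcodes (range over libraries) and in 67.8% to 73.3% of 390 goblet-like barcodes labelled IE-HuR-/-, beside 1.23% to 2.15% and 1.09% to 2.29% of enterocyte-like barcodes (8911 and 6810). Without thinning the goblet-like shares were 75.3% to 84.8% and 72.2% to 79.8%. Ubd was seen in 5.77% to 6.05% of enterocyte-like control barcodes and in 11.6% to 13.7% of those labelled IE-HuR-/-, and Irf1 in 21.0% to 21.4% and 25.6% to 28.1%. Unthinned, these were 8.41% to 10.8% and 17.9% to 18.5% for Ubd, and 28.8% to 38.2% and 36.4% to 37.4% for Irf1, whose unthinned ranges overlapped. In T/NK-like barcodes (2452 and 2879) Ubd was seen in 1.09% to 2.01% and 1.55% to 1.80%, and Irf1 in 23.2% to 28.5% and 26.0% to 27.6%. Gbp2 was seen in at most 0.228% and 0.662% of enterocyte-like barcodes but in 5.17% to 5.94% and 7.23% to 8.38% of T/NK-like barcodes.

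Position along the villus was described without a test. The enterocyte-like barcodes of at least 2000 UMIs in each library were divided into 3 equal bins. The bins followed the share of UMIs from the villus-tip genes Ada, Nt5e, Slc28a2, Clec2h and Creb3l3. They were cut within each library, so the same bin need not hold the same position in both labels. Ada ranged over 245 to 331 CPM in control and 536 to 792 CPM in the other libraries in the middle bin. In the highest bin it ranged over 6560 to 8143 and 9922 to 10743 CPM, whereas Creb3l3 there ranged over 997 to 1032 and 885 to 933 CPM. Clec2h itself was highest in the middle bin, at 1007, 1693 and 1205 CPM from the lowest to the highest bin in control and at 1507, 2425 and 1443 CPM in the other libraries (means of 3). In control, 6 of the members had their lowest mean in the bin with the most tip RNA. Cxcl10 went from 14.0 ± 4.83 CPM (SD, n = 3 libraries) in the lowest to 1.43 ± 0.487 CPM in the highest bin, Igtp from 28.5 ± 2.17 to 8.91 ± 0.947 CPM, and Irgm1 from 14.2 ± 3.03 to 4.15 ± 0.819 CPM. Gbp3 went from 3.25 ± 0.665 to 0.486 ± 0.241 CPM and Gbp7 from 13.7 ± 2.19 to 6.001 ± 1.34 CPM. Irf1 ran the other way, from 99.4 ± 3.39 to 171 ± 5.78 CPM, and Ubd went from 44.3 ± 8.74 through 67.8 ± 7.03 to 33.5 ± 2.70 CPM.

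In the libraries labelled IE-HuR-/- the means of Gbp3, Gbp7, Irgm1, Igtp and Cxcl10 fell less between the lowest and the highest bin, or did not fall, and that of Ubd was lowest in the lowest bin (63.4 ± 9.23 CPM). Gbp3 had 0.255 ± 0.310 and 0.359 ± 0.144 CPM. Irgm1 had 6.14 ± 0.583 CPM in the lowest and 4.61 ± 1.32 CPM in the highest bin, and Gbp7 had 7.70 ± 1.19 and 7.76 ± 3.38 CPM. Igtp had 17.4 ± 0.477 and 10.3 ± 1.53 CPM, and Cxcl10 had 2.19 ± 0.820 and 0.380 ± 0.286 CPM. The labels stood apart for Irgm1 and Igtp in the lowest bin and overlapped in the highest. Irgm1 in the lowest bin ranged over 10.9 to 16.8 CPM in control and 5.58 to 6.74 CPM in the other libraries, whereas in the highest bin the ranges were 3.25 to 4.84 and 3.17 to 5.75 CPM. Igtp ranged over 26.8 to 30.9 and 16.9 to 17.9 CPM in the lowest bin and over 7.86 to 9.68 and 8.49 to 11.2 CPM in the highest.

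The labels were farthest apart in CPM in the highest bin for Irf1, Gbp2 and Ubd. Irf1 had 121 ± 10.0, 157 ± 2.11 and 259 ± 17.4 CPM from the lowest to the highest bin in the libraries labelled IE-HuR-/-, and Gbp2 had 2.04 ± 0.251, 2.94 ± 1.40 and 6.80 ± 3.06 CPM against at most 0.560 ± 0.179 CPM in control. Ubd had 101 ± 6.41 CPM in their highest bin and 33.5 ± 2.70 CPM in that of control. Median UMIs per barcode ran from 5709 to 7871 in the lowest bins and from 11691 to 18406 in the highest, and the part of depth in these slopes was not tested. The part of unmatched position in the label differences by bin, and in those of the whole enterocyte-like sums, was not tested either.

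**Figure D4:**
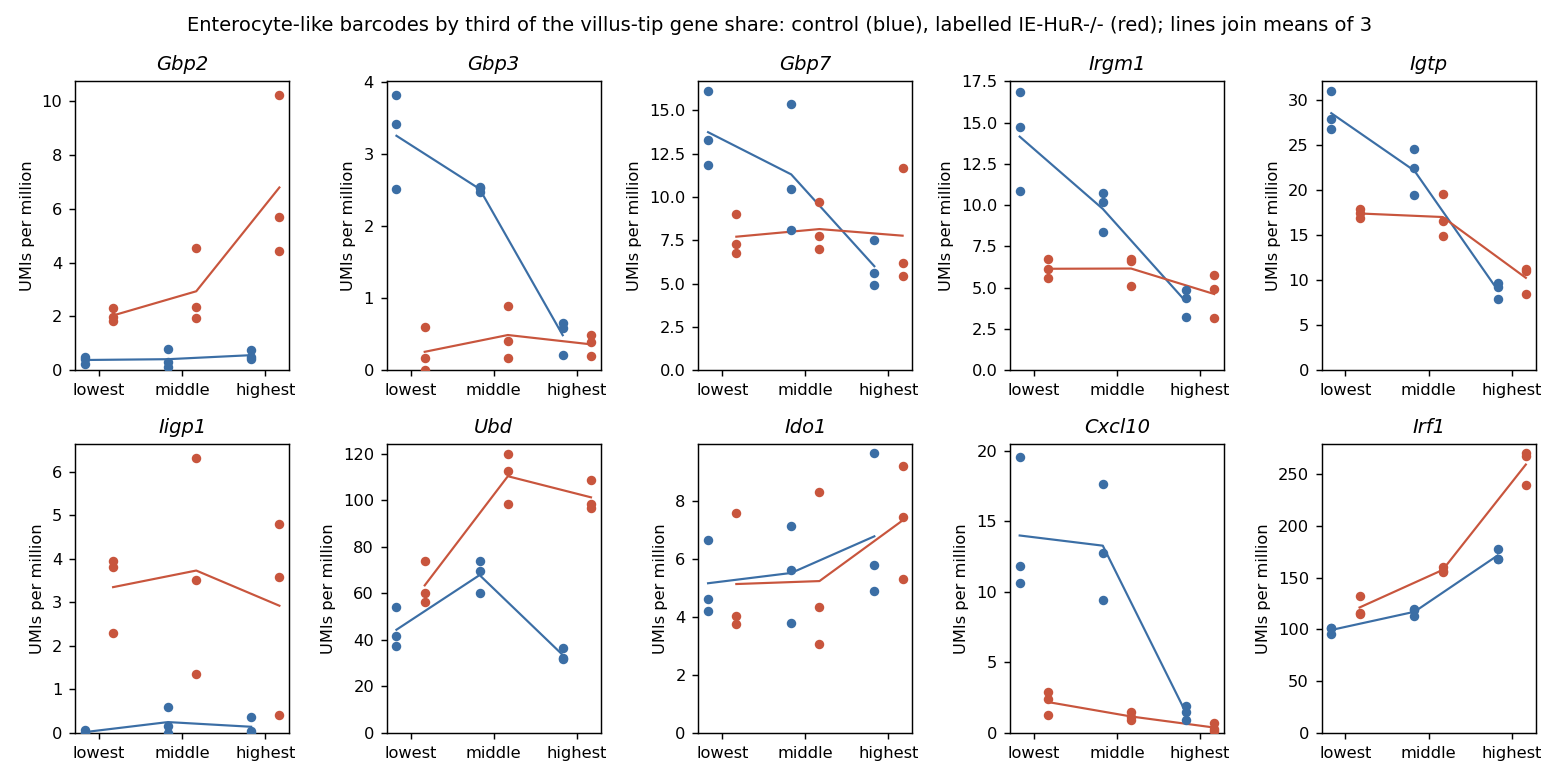
Level of each target in CPM (y axis, from 0) in 3 equal bins of enterocyte-like barcodes from the lowest to the highest share of villus-tip RNA (x axis), 1 point per library, control in blue and libraries labelled IE-HuR-/- in red, with lines through means of 3. Irgm1, Igtp and Cxcl10 fall toward the highest bin in control, and Irf1 rises in both groups.

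Other genes of the pathway were counted in lists, each beside all RNAs tested in its class (median log2 fold change -0.01 in enterocyte-like and -0.02 in goblet-like sums). Of all RNAs tested, 29.6% were called higher and 29.2% lower in enterocyte-like sums, and 14.5% and 12.5% in goblet-like sums. In enterocyte-like sums 8 of 13 signalling genes were higher and 1 was lower, with a median of 0.23. Ciita, the regulator of MHC class II genes, rose by 2.64 (SE 0.0757), Nlrc5, its counterpart for MHC class I, by 0.79 (SE 0.179), and the feedback inhibitor Socs1 by 0.78 (SE 0.0709) on the log2 scale. The receptor chain Ifngr1 rose by 0.69 (SE 0.0407) and Ifngr2 fell by 0.10 (SE 0.0407), while Jak1 and Jak2 rose by 0.18 and 0.23. The small rise of Jak1 depended on scaling: its unscaled means were 101 CPM in control and 99.8 CPM in the other libraries, and without TMM the median of all RNAs was -0.20 in both epithelial classes. In goblet-like sums 7 of 13 were higher and 0 lower, with a median of 0.55.

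Of the other interferon-inducible GTPases, 3 of 6 tested were higher and 1 lower in enterocyte-like sums, with a median of 0.30, so that the share called was near the 58.8% of all RNAs. Gbp8 rose by 2.11, Gbp4 by 1.47 and Ifi47 by 0.38, and Gbp6 fell by 0.42 on the log2 scale. In goblet-like sums 4 of 5 were higher and 0 lower (median 1.29), among them Gbp8 (2.31), Gbp4 (2.12), Ifi47 (1.29) and Irgm2 (0.83), the neighbour of Igtp.

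Of 10 genes of the immunoproteasome and peptide loading, which supply MHC class I with peptides, 6 were higher and 3 lower in enterocyte-like sums (median 0.21), the latter near the 29.2% of all RNAs. Tap1 (0.39), Psme1 (0.36) and Psmb10 (0.33) rose most, and Tapbpl (-0.29), Tap2 (-0.15) and Tapbp (-0.13) fell. In goblet-like sums 7 were higher and 0 lower (median 0.39). Of 20 other interferon-gamma targets tested, 9 were higher and 6 lower in enterocyte-like sums (median 0.16), and the share lower was again near the 29.2% of all RNAs. Tapbp belongs to both lists, and its fall is counted in each. There were rises of Duox2, an oxidase of the apical membrane (2.84), Cd274, which encodes PD-L1 (2.02), and the nucleic acid sensor Zbp1 (1.00), and falls of Xaf1 (-1.13), Trim21 (-0.89) and the inflammatory caspase Casp1 (-0.65). In goblet-like sums 7 of 19 were higher and 0 lower (median 0.11).

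A comparison list of type I and type III interferon targets leaned the other way in enterocyte-like sums, where 14 of 18 were lower and 2 higher (median -0.74). The log2 fold change was -3.601 for Ifit2 (SE 0.381), -2.62 for Ifit3 (SE 0.106) and -2.43 for Ifit3b (SE 0.174), all members of a family of antiviral RNA-binding proteins, and Irf7 (0.54) and Oasl1 (0.48) rose. In goblet-like sums 3 of 16 were higher and 5 lower (median -0.29). In T/NK-like sums the counts were 3 higher and 0 lower of 14 signalling genes, 0 of 11 GTPases, 0 of 10 immunoproteasome genes, 2 higher and 0 lower of 19 other targets, and 0 higher and 3 lower of 14 type I and type III targets. Of all 11194 RNAs tested in T/NK-like sums, 1.39% were higher and 0.911% lower.

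**Figure D5:**
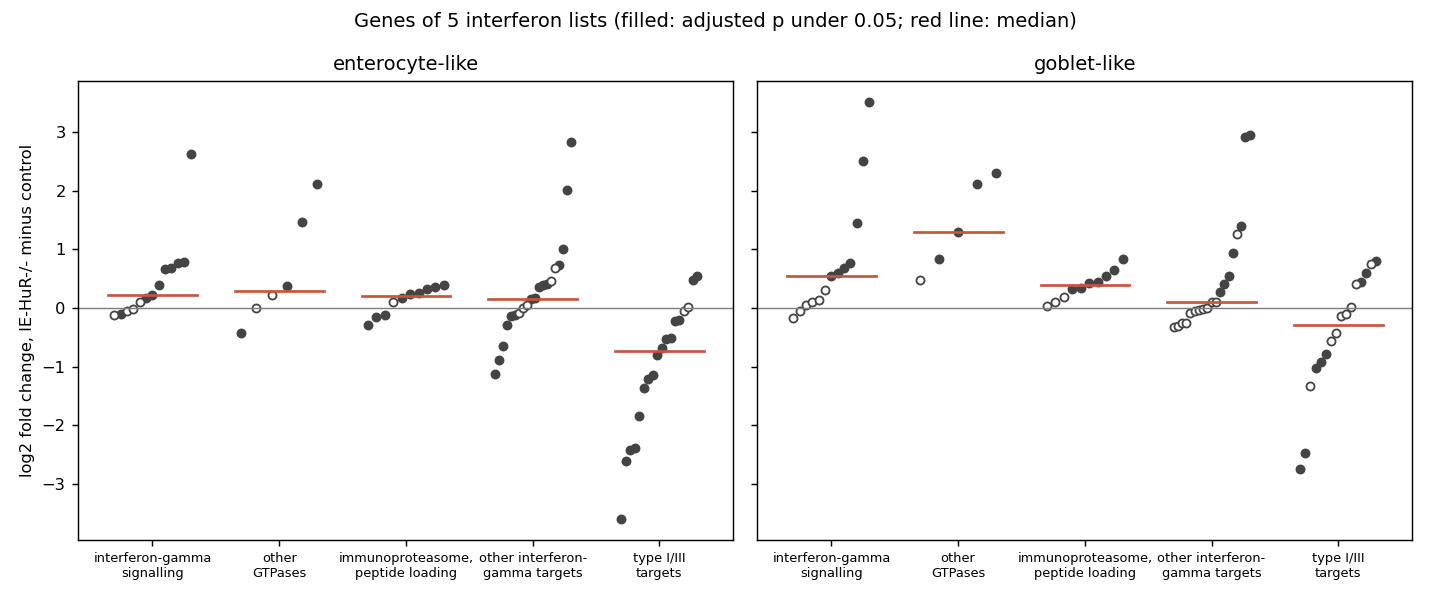
Log2 fold change (libraries labelled IE-HuR-/- minus control, y axis) of the tested genes of 5 lists in enterocyte-like and goblet-like sums, filled where edgeR adjusted p was under 0.05, with red lines at list medians. The type I and type III list has its median at -0.74 in enterocyte-like sums, and the other GTPases have theirs at 1.29 in goblet-like sums.

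The RNAs whose levels ran most like the mean of the 10 members over the 30 sums of 5 classes and 6 libraries, among 13352 RNAs, were Junb (Pearson r = 0.86), Btg2 (0.85), Atp6v0d1 (0.85), H2-D1 (0.85) and Atp8a1 (0.84). The points share libraries, depth and class, so the values are a description.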

How the data were processed

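The deposited files hold raw UMI counts per gene and barcode, made by the authors with Cell Ranger (6.1.2 per the file headers) against mm10 per the labels. The study's methods name another version, a human reference and a 3′ kit where the labels name a 5′ kit, which was not resolved here. No batch was given, so label and preparation cannot be told apart.

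Barcodes with at least 200 genes were gated by marker shares, with thresholds set after the data had been seen. No doublet caller was run: barcodes passing several gates (779) were set aside as mixed. Of the enterocyte-like gate, 7530 barcodes lay within 0.5 percentage points. Counts were summed per library and class (59518012 to 91818560 UMIs per library) and tested with edgeR 4.0.16 in R 4.3.3 (robust quasi-likelihood, TMM, minimum count 10, total 15), with DESeq2 1.42.0 as an alternative. Class comparisons used the library as a block. The SE given with edgeR values was derived from the test, as the absolute log2 fold change divided by the square root of the quasi-likelihood F statistic. Python 3.11.15, numpy 2.4.6, pandas 2.3.3, scipy 1.17.1 and matplotlib 3.10.9 did the rest.

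The members, gene lists and tests were chosen with earlier results of these data known. Genes named were all members, Elavl1, 3 largest rises and falls per list in enterocyte-like sums, a few signalling genes and the 5 most similar RNAs. A signalling gene that the rule also names is not reported here. Others, such as the goblet-like values of list genes, were named after their values were seen. Intervals cover counting error only. On simulated data, the enterocyte-like test recovered 132 of 133 changed RNAs (log2 change 2, 12619 RNAs tested) with 11 false calls of 143, and the goblet-like interaction 98 of 130 (12307 tested). The simulation gave every RNA the same dispersion and changed only 200 RNAs, whereas 7415 were called in enterocyte-like sums. These rates therefore need not hold for the data or for smaller changes. Alternatives were DESeq2, no TMM, no low-count filter, stricter barcodes, doubled gates, barcodes with little foreign RNA, added epithelial barcodes, a replicate block and each library left out. Barcodes with little foreign RNA were not run for the T/NK-like interaction.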

Additional observations from a re-analysis of the deposited data

Results flagged for a closer look

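For 12 values the label difference itself differed between classes (edgeR class-by-label term, adjusted p under 0.05). Against enterocyte-like sums, the label difference of T/NK-like sums was -2.68 for Gbp2, 2.55 for Gbp3, 0.45 for Gbp7, 0.62 for Irgm1, -2.90 for Iigp1, -1.32 for Ubd and -0.50 for Irf1 on the log2 scale. Against the same enterocyte-like sums, that of goblet-like sums was 2.18 for Gbp3, 1.18 for Gbp7, 1.48 for Irgm1, 1.40 for Igtp and 0.44 for Irf1. Gbp3 had too few UMIs to be tested in goblet-like sums alone. Both sets share the enterocyte-like sums and are not independent. The part of free enterocyte RNA in the T/NK-like value of Ubd was not tested. Over all RNAs, 9.81% of 13940 were called for the T/NK-like term and 3.85% of 12300 for the goblet-like term. With 1 library left out, the members called ranged over 2 to 8 for the T/NK-like and 3 to 5 for the goblet-like term. Groups of 3 libraries were too small for a test of single outlying libraries.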

How the results depend on the processing

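Of 1183 member values recomputed, 1067 kept direction and side of the threshold, 57 fell short of it, 23 passed it and 36 changed sign, and the causes were not tested. Members called with 1 library left out were 8 to 8 in enterocyte-like, 5 to 7 in goblet-like, 0 to 0 in progenitor-like, 0 to 1 in T/NK-like and 0 to 1 in myeloid-like sums, 2 to 8 for the T/NK-like and 3 to 5 for the goblet-like interaction. In T/NK-like sums DESeq2, at least 2000 UMIs and doubled gates each gave 0 and no filter gave 3. In myeloid-like sums no filter gave 1, and leaving out the third library labelled IE-HuR-/- gave 1, neither among the 4 members tested in full. No filter gave 8 for the goblet-like interaction.

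Values that changed sign were as follows, none called in the full set except Ido1 between T/NK-like and enterocyte-like sums. Enterocyte-like Ido1 was -0.13 without TMM, -0.063 with doubled gates, and -0.11 to 0.38 with 1 library left out (-0.08, -0.11 and -0.11 without the first or the third control or the first IE-HuR-/- library). Goblet-like Cxcl10 was -0.017 with doubled gates, and -1.72 to 0.69 with 1 library left out (-0.087 and -1.72 without the third control or the first IE-HuR-/- library). T/NK-like Igtp was -0.051 with doubled gates, Ubd 0.038 with little foreign RNA and -0.48 to 0.25 with 1 library left out (0.25 without the second control), and Cxcl10 -1.23 to 0.16 (0.16 without that library). Myeloid-like Gbp2 was -0.011 without TMM, -0.41 with doubled gates, and -0.29 to 0.57 with 1 library left out (-0.22, -0.065 and -0.29 without the first control, the third control or the second IE-HuR-/- library). Between T/NK-like and enterocyte-like sums Iigp1 was 0.49 with DESeq2, 0.80 without TMM, 0.27 with doubled gates, and -0.55 to 0.14 with 1 library left out (above 0 without the second or the third IE-HuR-/- library, at 0.0018 and 0.14). There Ido1 was 0.34 without TMM, and Cxcl10 0.54 without TMM and -0.67 to 0.064 with 1 library left out (0.064 without the third control). Between myeloid-like and enterocyte-like sums Ido1 was 0.47 without TMM and -0.50 to 0.065 with 1 library left out (0.065 without the second control). Between goblet-like and enterocyte-like sums Cxcl10 was 0.079 with doubled gates, 0.061 with little foreign RNA, and -0.95 to 0.23 with 1 library left out (0.13 and 0.23 without the first or the third control). The goblet-like interaction of Gbp2 was 0.027 with epithelial barcodes added, and -0.94 to 0.53 with 1 library left out (0.16, 0.53 and 0.17 without the first control, the third control or the second IE-HuR-/- library), and that of Ubd was -0.054 to 0.87 (-0.054 without the third IE-HuR-/- library).

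Counts over all RNAs moved most in small classes. Progenitor-like calls were 11, with DESeq2 18, no filter 77, doubled gates 33 and 3 to 232 with 1 library left out. T/NK-like calls were 258, with no filter 725 and 79 to 690 with 1 library left out. Myeloid-like calls were 8, with DESeq2 25, no filter 107, stricter barcodes 5, at least 2000 UMIs 3, little foreign RNA 26 and 2 to 46 with 1 library left out. The T/NK-like interaction had 1367, without TMM 2218 and down to 496 with 1 library left out. The goblet-like interaction had 473, with no filter 836, doubled gates 1174 and 267 to 764 with 1 library left out. Without TMM, higher and lower calls were 1881 and 6189 (main 3730 and 3685) in enterocyte-like, 748 and 2304 (1310 and 1127) in goblet-like, 7927 and 3741 (5881 and 5701) between T/NK-like and enterocyte-like, 4520 and 2597 (3075 and 4097) between myeloid-like and enterocyte-like, 2157 and 4620 (3039 and 3017) between goblet-like and enterocyte-like sums, 1956 and 262 (869 and 498) for the T/NK-like interaction, where DESeq2 gave 646 and 1033, and 274 and 247 (310 and 163) for the goblet-like one.

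Same-numbered libraries correlated in their deviations at -0.20 to -0.04 in enterocyte-like and -0.06 to 0.03 in goblet-like sums. The range was -0.20 to 0.15 in progenitor-like, -0.0011 to 0.057 in T/NK-like and -0.035 to 0.077 in myeloid-like sums. In no class did every library correlate best with its own number. Both libraries numbered 1 and both numbered 2 did in T/NK-like sums, and both numbered 2 in progenitor-like sums. With 3 libraries per label this cannot decide whether the numbers mark pairs. With the replicate number as a block, members called were 8 in enterocyte-like, 7 in goblet-like, 0 in progenitor-like, 1 in T/NK-like and 0 in myeloid-like sums, and progenitor-like calls over all RNAs were 26. Low counts limit Iigp1, Gbp2 and Gbp3 most.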

Other observations

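Fibroblast-like barcodes, the stromal cells under the epithelium, were too few for a test (67 in control and 19 in the libraries labelled IE-HuR-/-), and their levels are given as values. Gbp2 had 168, 293 and 297 CPM in control and 908, 1125 and 575 CPM in the libraries labelled IE-HuR-/-. Iigp1 had 17.3, 67.0 and 84.8 CPM against 731, 794 and 409 CPM, and Igtp had 12.9, 41.9 and 25.4 CPM against 691, 529 and 128 CPM. Gbp3 had 43.2, 79.5 and 59.4 CPM against 237, 430.1 and 102 CPM, Gbp7 43.2, 67.0 and 67.8 against 395, 265 and 243 CPM, and Irgm1 21.6, 29.3 and 50.9 against 237, 99.2 and 12.8 CPM. The libraries labelled IE-HuR-/- rest on 5, 4 and 10 barcodes. Irf1 overlapped, at 86.3, 83.7 and 161 CPM against 138, 198 and 153 CPM. Ubd, Ido1 and Cxcl10 had 0 to 8 UMIs in each library.

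Tuft-like barcodes, the chemosensory cells of the epithelium, were also few (101 in control and 69 in the libraries labelled IE-HuR-/-). They had Iigp1 at 0 in all 6 libraries, which in so few barcodes does not show that it is absent. Irf1 stood at 109, 131 and 129 CPM in control and 112, 217 and 130 CPM in the others, with overlap.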
